A study of Mus musculus with 6 samples.

Results

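Messenger RNA of genes active in red blood cell precursors was measured here in CD11b-positive bone marrow cells. The 9 genes, chosen by name, include the adult α-globin genes Hba-a1 and Hba-a2 and the adult β-globin genes Hbb-bs and Hbb-bt. Alas2 is a haem synthesis gene, Slc4a1 that of a membrane anion exchanger and Klf1 that of a transcription factor. Car1 and Car2 are carbonic anhydrase genes. All 9 were found among the 54532 genes of the deposited table, and the rule that picks them is a list of names, drawn up with earlier results of these data known. The cells came from tibias of mice aged 12 weeks and were enriched for CD11b, an integrin chain of myeloid cells, with a positive selection kit. The groups were 3 libraries labelled Tshr+/+ (wild type) and 3 labelled Tshr-/-; Tshr is the gene of the thyrotropin receptor, through which thyroid-stimulating hormone acts, and the comparison asks which genes differ when it is missing. The titles give the mutant genotype as Tshr-/-, while a characteristic calls it a knockdown; no strain, sex or littermate relation is given in the labels used here. All 6 libraries carry osteoclast differentiation as a treatment label with no time, and no culture step is described.

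Haemoglobin is a tetramer of α and β chains, each holding one haem group, and it is made in erythroblasts, the red cell precursors that mature in bone marrow around a central macrophage. KLF1, a zinc finger factor, binds CACCC boxes and works with GATA1 to switch on globin genes, Alas2 and red cell membrane genes during this maturation. Car1 and Slc4a1 rise in erythroblasts, and globin messenger RNA persists in reticulocytes, the anucleate cells that still hold RNA. Neither erythroblasts nor red cells are counted among CD11b-positive myeloid cells; Car2 is in addition a gene of osteoclasts, where carbonic anhydrase II supplies acid for bone resorption.

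The regulatory sequence just upstream of 6 of the 9 genes is shown because 5 of these 6 genes, the globin genes and Alas2, had their lowest values in the same libraries, as described below, and Klf1 did not. The sequences are from RefSeq on GRCm38.p6, the 120 bases before the RefSeq start site of each gene, on the strand of the gene, with motif matches in capitals. The promoter table held no entry for Slc4a1, Car1 and Car2.
Hba-a1, chr11:32283552-32283671, plus strand: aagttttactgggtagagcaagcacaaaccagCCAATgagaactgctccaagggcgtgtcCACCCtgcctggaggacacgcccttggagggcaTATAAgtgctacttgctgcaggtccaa
Hba-a2, chr11:32296372-32296491, plus strand: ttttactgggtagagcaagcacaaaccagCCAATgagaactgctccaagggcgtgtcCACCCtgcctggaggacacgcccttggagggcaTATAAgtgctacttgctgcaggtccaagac
Hbb-bs, chr7:103827929-103828048, minus strand: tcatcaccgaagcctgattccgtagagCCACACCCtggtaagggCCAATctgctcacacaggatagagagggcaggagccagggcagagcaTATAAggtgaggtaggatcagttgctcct
Hbb-bt, chr7:103813924-103814043, minus strand: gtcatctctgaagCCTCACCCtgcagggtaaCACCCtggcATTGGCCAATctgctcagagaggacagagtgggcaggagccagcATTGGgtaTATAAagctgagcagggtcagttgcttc
Alas2, chrX:150547297-150547416, plus strand: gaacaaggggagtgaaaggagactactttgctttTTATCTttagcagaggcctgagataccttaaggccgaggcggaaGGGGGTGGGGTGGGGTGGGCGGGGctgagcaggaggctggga
Klf1, chr8:84901862-84901981, plus strand: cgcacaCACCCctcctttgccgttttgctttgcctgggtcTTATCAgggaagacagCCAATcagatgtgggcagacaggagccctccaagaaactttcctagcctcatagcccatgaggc

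Motifs were searched on both strands of the 250 bases upstream: the CACCC box (CACCC), a longer KLF1 motif (CCNCNCCC, which overlaps CACCC boxes), a GATA motif (AGATAA or AGATAG or TGATAA or TGATAG), the CCAAT box (CCAAT) and the TATA box (TATAA). Each of the 6 sequences held a CACCC box, as did 52.0% of 32851 promoters of the same length. The GATA motif was in 5 of 6 and in 26.5% of all promoters, the CCAAT box in 5 of 6 and in 33.8%, the TATA box in 5 of 6 and in 22.8%, and the longer KLF1 motif in 3 of 6 and in 45.9%. In all 4 globin sequences a TATA box began 27 to 30 bases before the start site. The 2 α-globin windows were identical over the 247 bases that they share, and those of Hbb-bs and Hbb-bt matched at 127 of 249 bases. A match describes letters only, and no binding was measured.

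**Figure D1:**
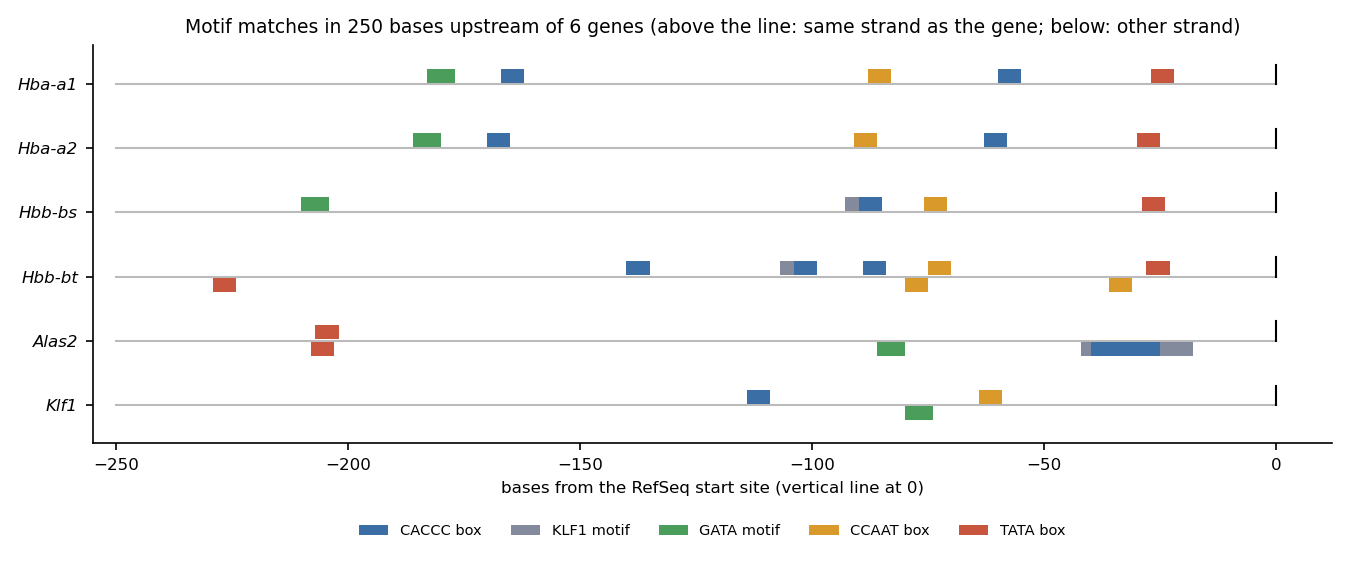
Positions of motif matches in 250 bases before the RefSeq start site, x axis in bases from that site, 1 row per gene; boxes above a line are on the strand of the gene and boxes below it on the other strand. Hba-a1 and Hba-a2 share one layout, and each of the 4 globin genes has a TATA box 27 to 30 bases before the start.

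The libraries held 14698126 to 17976477 fragments assigned to genes. Values are FPKM, fragments per kb of gene length scaled by a factor of each library, so that levels of different genes can be compared. That factor did not follow the assigned total. A fragment of a gene of 1 kb equalled 0.0587 FPKM in Tshr+/+ 1 and 0.0541 FPKM in Tshr+/+ 3. Those libraries held 17635762 and 17072004 fragments, so scaling to totals would have given the reverse order. Median-of-ratios scaling, by each library's median ratio to the geometric mean of all libraries, had a factor of 1.007 in every library. As an alternative it could therefore change little. Myeloid markers were abundant in every library: Itgam, the gene of CD11b, had 87.4 to 133.6 FPKM. Tshr had 0.537, 0.552 and 0.405 FPKM in Tshr+/+ and 0.414, 0.297 and 0.00825 FPKM in those labelled Tshr-/- 1, 2 and 3, so that libraries 1 and 2 still held fragments of the targeted gene. The part of Tshr that the mutation removes is not given in the labels used here, and groups are therefore named by their labels. The libraries numbered 3 stand apart from the others in both groups: of 10913 genes that reached 1 FPKM in 3 or more libraries, 22.0% had their highest value of each group there and 24.2% their lowest.

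Adult globin messenger RNA was present in every library, below the level of Itgam for each of the 4 genes. Hba-a1 was the most abundant of the 9 genes with a mean of 43.4 FPKM over the 6 libraries, followed by Hbb-bs with 41.3, Hba-a2 with 9.83, Hbb-bt with 8.10, Car2 with 2.90, Car1 with 0.808, Alas2 with 0.746, Slc4a1 with 0.573 and Klf1 with 0.272 FPKM. The ranges of Hba-a1 and Hbb-bs overlapped, as did those of Hba-a2 and Hbb-bt and those of Car1, Alas2 and Slc4a1. The order within each of these sets changed between libraries. The ranges of Hbb-bt and Car2 and those of Slc4a1 and Klf1 also overlapped. Within single libraries, however, Hbb-bt was above Car2 and Slc4a1 above Klf1 in all 6. Hba-a1 ranked between 756 and 2045 among all genes of a library, and Klf1 was below 0.6 FPKM in every library.

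The main α-globin gene Hba-a1 (chromosome 11, 32283511 to 32284465 of GRCm38, plus strand, 3 exons) had 28.4, 57.5 and 22.3 FPKM in Tshr+/+ 1, 2 and 3 and 64.3, 51.7 and 36.0 FPKM in those labelled Tshr-/- 1, 2 and 3. Tshr+/+ 2 lay among the Tshr-/- values, while Tshr+/+ 1 and 3 lay below all of them, so the groups overlapped. The group means were 36.1 ± 18.8 and 50.7 ± 14.2 FPKM (SD, n = 3), and the log2 difference was 0.56 ± 0.37 (SE; 95% interval -0.31 to 1.43), on the log2(FPKM + 1) scale used for all differences below. It did not pass limma's test (adjusted p = 0.9997, unadjusted p = 0.174).

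Its downstream copy Hba-a2 (chromosome 11, 32296489 to 32297298, plus strand) had 2.64, 13.8 and 3.24 FPKM in Tshr+/+ 1, 2 and 3 and 16.2, 14.3 and 8.78 FPKM in those labelled Tshr-/- 1, 2 and 3. The same Tshr+/+ library, number 2, again stood with the Tshr-/- libraries. The means were 6.55 ± 6.25 and 13.1 ± 3.87 FPKM (SD, n = 3), a ratio of 2.00, with a log2 difference of 1.17 ± 0.53 (SE; 95% interval -0.10 to 2.43; limma adjusted p = 0.9997, unadjusted p = 0.0650).

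Hbb-bs, the more abundant adult β-globin gene (chromosome 7, 103826534 to 103828096, minus strand), had 25.9, 48.8 and 20.2 FPKM in Tshr+/+ and 64.8, 48.5 and 39.5 FPKM in those labelled Tshr-/-, in the order of their numbers. Here Tshr+/+ 2 was above the libraries labelled Tshr-/- 2 and 3, and the other Tshr+/+ libraries were the lowest. The means of Hbb-bs were 31.6 ± 15.1 and 50.9 ± 12.8 FPKM (SD, n = 3), and its log2 difference was 0.74 ± 0.33 (SE; 95% interval -0.05 to 1.53; limma adjusted p = 0.9997, unadjusted p = 0.0624).

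Hbb-bt, the second adult β-globin gene (chromosome 7, 103812524 to 103813996, minus strand), had 3.51, 9.45 and 4.46 FPKM in Tshr+/+ and 13.4, 11.3 and 6.49 FPKM in those labelled Tshr-/-. Its groups overlapped through Tshr+/+ 2, which exceeded the library labelled Tshr-/- 3. The means were 5.80 ± 3.19 and 10.4 ± 3.55 FPKM (SD, n = 3), and the log2 difference was 0.79 ± 0.37 (SE; 95% interval -0.08 to 1.66; limma adjusted p = 0.9997, unadjusted p = 0.0686).

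The higher means of the 4 globin genes in the libraries labelled Tshr-/- thus lay within the spread between libraries, and 0 of the 5 genes tested (these 4 and Car2) passed, as did 0 of all 10913 genes tested with limma (0%), of which 317, or 2.90%, had an unadjusted p under 0.05; voom on whole fragments also called 0. None of the 5 had an unadjusted p under 0.05 in this fit. With the replicate number as a block, limma's unadjusted p was 0.0311 for Hba-a2, 0.0316 for Hbb-bs and 0.0405 for Hbb-bt, with adjusted p of 0.820 to 0.827. It was 0.0377 for Hba-a2 and 0.0425 for Hbb-bs with voom, and 0.0230, 0.0166 and 0.0211 for Hba-a2, Hbb-bs and Hbb-bt with libraries scaled to equal totals, where no adjusted p passed either. For Hbb-bs it was 0.0321 with quantile normalization, and for Hbb-bt 0.0258 without the library labelled Tshr-/- 3. Without Tshr+/+ 2, limma's unadjusted p was 0.0109 for Hba-a1, 0.000406 for Hba-a2, 0.00340 for Hbb-bs and 0.00738 for Hbb-bt, and again no adjusted p passed. Leaving out Tshr+/+ 1 or 3 gave none under 0.05, so these values depend on which library is left out. Groups without overlap were found for 0 of all 9 genes, against 6.77% of the genes tested. The mean was higher in the libraries labelled Tshr-/- for 7 of the 9, against 47.1% of the genes tested, and with libraries scaled to equal totals for 9 of 9 and 58.8%, since Klf1 and Car1 then moved to 0.03 and 0.01. The median difference of the 9 was 0.14 and that of the genes tested -0.01. The globin genes are not independent measures of one another. The coding sequences of Hba-a1 and Hba-a2 differed at 1 of 429 bases and those of Hbb-bs and Hbb-bt at 1 of 444, and 74.5% of all stretches of 100 bases in the main Hba-a2 transcript also occurred in that of Hba-a1. No source used here says how fragments were divided between such copies, so the level of a single copy is uncertain, while the sum of a pair is less so. Without Tshr+/+ 2 the log2 difference was 0.94 for Hba-a1 and 1.80 for Hba-a2, without Tshr+/+ 3 it was 0.28 for Hba-a1 and 0.48 for Hbb-bs, and with the libraries labelled Tshr-/- 1 and 2 both left out, an alternative chosen after seeing the data, it was 0.11 for Hba-a1, 0.68 for Hba-a2, 0.41 for Hbb-bs and 0.24 for Hbb-bt.

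**Figure D2:**
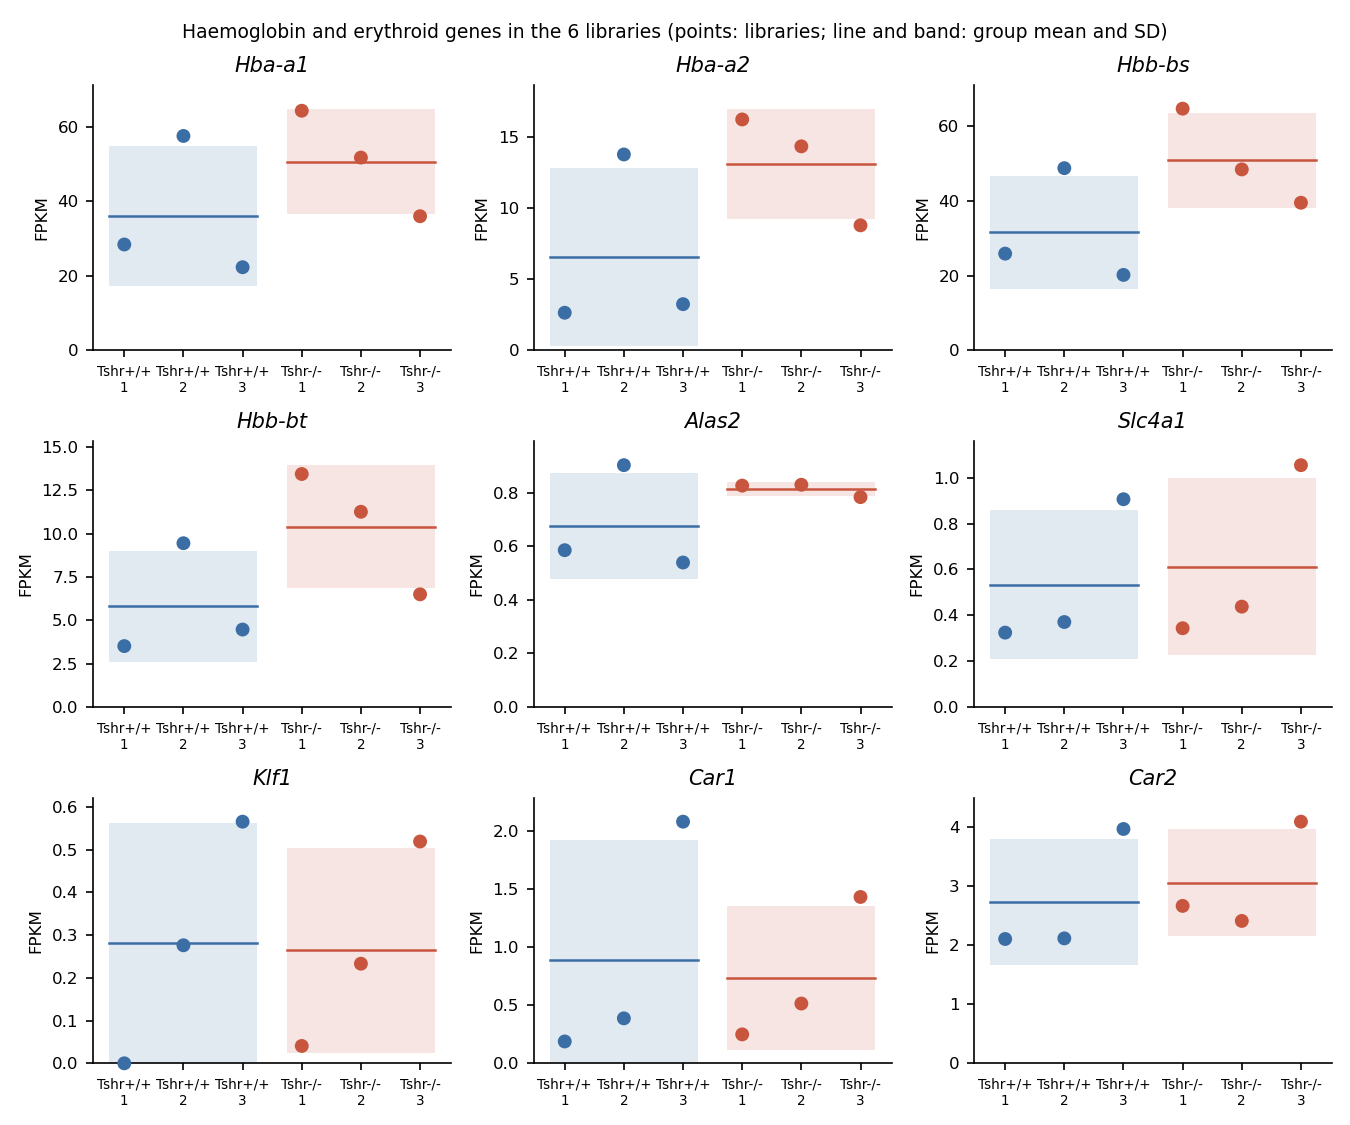
FPKM (y axis, from 0) of each of the 9 genes in the 6 libraries (x axis); points are libraries, lines and bands are group means and SD (n = 3). For the 4 globin genes Tshr+/+ 2 stands with the libraries labelled Tshr-/- and apart from Tshr+/+ 1 and 3; for Slc4a1, Klf1, Car1 and Car2 the libraries numbered 3 are highest in both groups.

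Summed over the 4 genes, globin fragments made up 45.6, 93.9 and 42.2 per 1000000 fragments in Tshr+/+ 1, 2 and 3, and 121.5, 92.3 and 78.5 per 1000000 in the libraries labelled Tshr-/- 1, 2 and 3. The Wilson 95% intervals, which cover counting error only, ran from 42.5 to 48.9 in Tshr+/+ 1 and from 89.5 to 98.6 in Tshr+/+ 2 and did not overlap. Over all genes, no 2 libraries agreed within counting error, so such a gap is not particular to globin. The ratio of α to β globin on the FPKM scale was 1.06, 1.22 and 1.04 in Tshr+/+ and 1.03, 1.11 and 0.973 in the libraries labelled Tshr-/-, close to equal in each library although the sums varied. In bulk RNA, a difference in the number of erythroid cells and one in the RNA of each cell cannot be told apart.

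The share of the second α-globin copy was not constant. Hba-a2 took 7.09% of the fragments of the α pair in Tshr+/+ 1 (Wilson 95% interval 5.01% to 9.94%) and 10.7% in Tshr+/+ 3 (7.93% to 14.2%), the 2 libraries with the least globin RNA. In Tshr+/+ 2 and the libraries labelled Tshr-/- 1, 2 and 3 it took 16.4%, 17.2%, 18.5% and 16.7%, and the lowest bound of these 4 intervals was 14.1%. The interval of Tshr+/+ 1 lay below all 4 of these, and that of Tshr+/+ 3 overlapped those of Tshr+/+ 2 and the library labelled Tshr-/- 3. Hbb-bt took 11.0%, 15.0% and 16.8% of the β pair in Tshr+/+ and 16.0%, 17.5% and 13.1% in the libraries labelled Tshr-/-, without the same order. Fragments that fit both copies could move these shares, which was not tested.

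**Figure D3:**
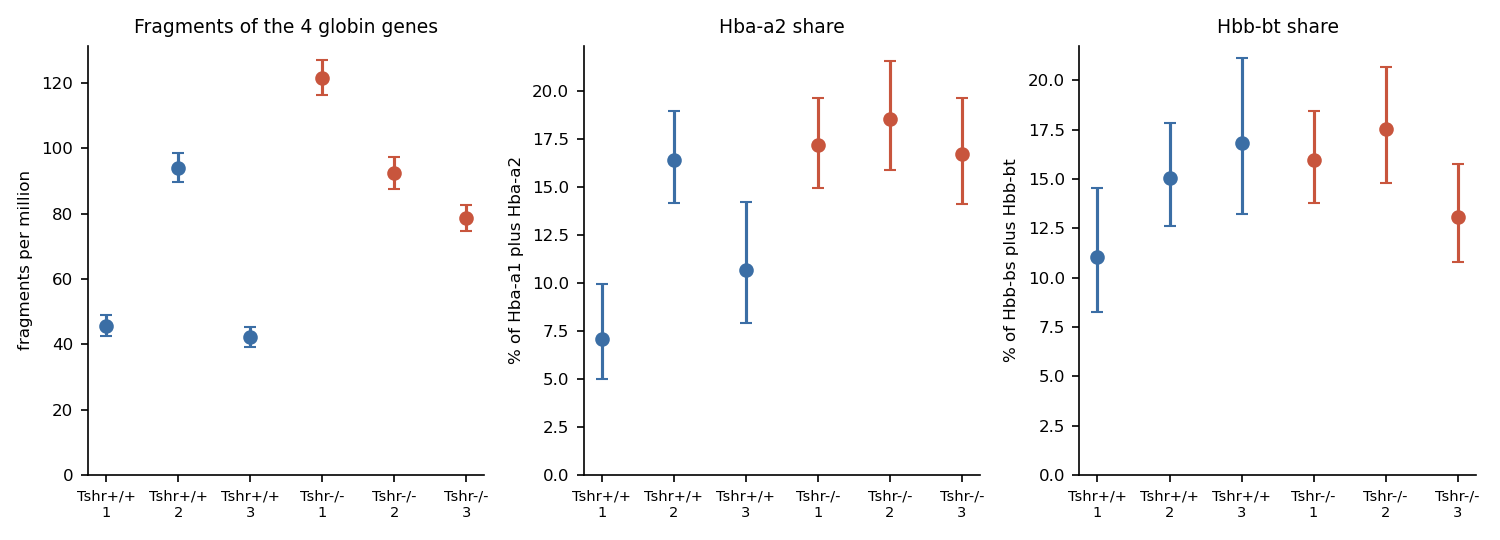
Left, fragments of the 4 globin genes per 1000000 fragments of each library; middle, Hba-a2 as a percentage of the α pair; right, Hbb-bt as a percentage of the β pair; points are libraries and bars are Wilson 95% intervals for counting error. Tshr+/+ 1 and 3 are lowest in the left panel, with 45.6 and 42.2, and in the middle panel, with 7.09% and 10.7%, but not together in the right panel.

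No other globin gene was seen at a comparable level. The embryonic genes Hba-x and Hbb-y and the genes Hbb-bh0, Hbb-bh1 and Hbb-bh2 of the β cluster had no fragment in any library; 3 fragments, the limit that a count of 0 allows, would equal between 0.159 and 1.66 FPKM for these 5 genes. The θ-globin genes Hbq1a and Hbq1b held 1 and 4 fragments over all 6 libraries.

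Alas2, the erythroid form of the first enzyme of haem synthesis (chromosome X, 150547375 to 150570638, plus strand, 11 exons), was far less abundant than the globin genes. It had 0.586, 0.904 and 0.540 FPKM in Tshr+/+, from 24, 36 and 24 fragments, and 0.828, 0.831 and 0.785 FPKM in those labelled Tshr-/-, from 32, 28 and 38 fragments. The 3 lowest libraries of Alas2 were Tshr+/+ 1, Tshr+/+ 3 and the one labelled Tshr-/- 3, as for each of the 4 globin genes, but the exact Poisson 95% intervals of all 6 libraries overlapped (up to 0.803 FPKM in Tshr+/+ 3, the lowest, and from 0.633 FPKM in Tshr+/+ 2, the highest), so this order is within counting error. The means were 0.677 ± 0.198 and 0.815 ± 0.0258 FPKM (SD, n = 3; exact two-sided permutation test p = 0.4, where 3 against 3 libraries cannot go below 0.1). Apex2, a DNA repair gene on the opposite strand, spans the whole of Alas2 and had 0.732 to 0.915 FPKM. No source used here says whether counting used strand, so fragments of these 2 genes may be mixed.

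Slc4a1, Klf1, Car1 and Car2 varied between libraries in another way than the globin genes: in each of the 4, the libraries numbered 3 were the 2 highest of all 6. Slc4a1, the anion exchanger band 3 of the red cell membrane (chromosome 11, 102348824 to 102366203, minus strand), had 0.324, 0.370 and 0.906 FPKM in Tshr+/+ 1, 2 and 3 and 0.343, 0.437 and 1.06 FPKM in those labelled Tshr-/- 1, 2 and 3, from 27 to 104 fragments. The number 3 library of each group was thus far above the other two, and the group means, 0.534 ± 0.324 and 0.612 ± 0.387 FPKM, overlapped widely (SD, n = 3; exact permutation test p = 0.6).

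Klf1 (chromosome 8, 84901928 to 84905291, plus strand) was at the limit of detection. It had 0, 7 and 16 fragments in Tshr+/+ 1, 2 and 3 and 1, 5 and 16 fragments in the libraries labelled Tshr-/- 1, 2 and 3, which is 0, 0.276 and 0.565 FPKM and 0.0406, 0.233 and 0.519 FPKM. The exact Poisson 95% interval was 0.323 to 0.918 FPKM in Tshr+/+ 3, and a count of 0 in Tshr+/+ 1 allows up to 0.115 FPKM (3 fragments). The means were 0.281 ± 0.283 and 0.264 ± 0.241 FPKM (SD, n = 3; exact permutation test p = 0.8).

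Car1, a carbonic anhydrase of erythroid cells (chromosome 3, 14766216 to 14808368, minus strand), had the widest range of the 8 genes seen in every library, 11.1-fold between the lowest and the highest. It had 0.188, 0.387 and 2.08 FPKM in Tshr+/+, from 4, 8 and 48 fragments, and 0.249, 0.514 and 1.43 FPKM in those labelled Tshr-/-, from 5, 9 and 36 fragments. Both libraries numbered 3 were above 1 FPKM and the other 4 below 0.6 FPKM. The means were 0.885 ± 1.04 and 0.732 ± 0.620 FPKM (SD, n = 3; exact permutation test p = 0.9).

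Car2 (chromosome 3, 14886273 to 14900770, plus strand), the neighbour of Car1 and the broadly expressed carbonic anhydrase II, had 2.11, 2.12 and 3.97 FPKM in Tshr+/+ and 2.67, 2.41 and 4.10 FPKM in those labelled Tshr-/-, from 82 to 200 fragments. Its high libraries were again those numbered 3. The means were 2.73 ± 1.07 and 3.06 ± 0.907 FPKM (SD, n = 3), and the log2 difference was 0.14 ± 0.24 (SE; 95% interval -0.44 to 0.71; limma adjusted p = 0.9997). The sum of 11 osteoclast markers did not share this order. It was 124.7, 127.0 and 143.0 FPKM in Tshr+/+ and 123.1, 190.1 and 125.9 FPKM in those labelled Tshr-/- 1, 2 and 3. Tcirg1, at 73.7 to 83.5 FPKM, was the most abundant of them. Clcn7 alone had its highest value of each group in the libraries numbered 3. Acp5 and Ctsk were highest of their group in Tshr+/+ 3 only. A part of osteoclasts in the Car2 values was not tested.

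**Figure D4:**
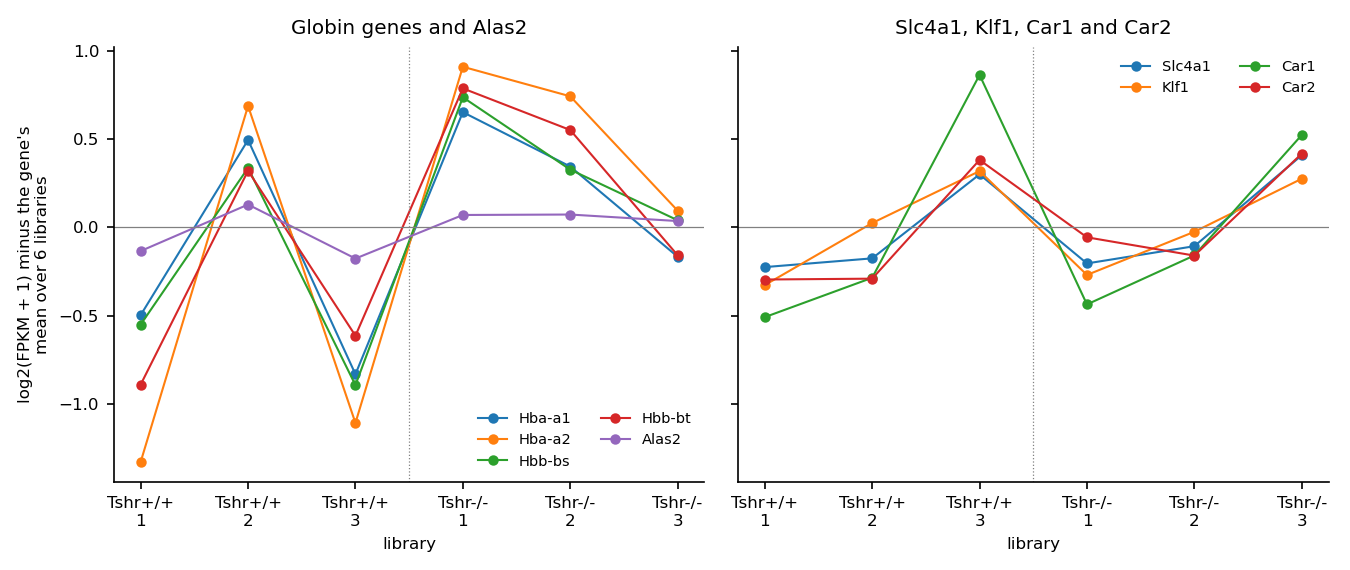
log2(FPKM + 1) of each gene minus its mean over the 6 libraries (y axis), by library (x axis); lines join the points of a gene and imply no order of libraries. Left, the globin genes and Alas2 are lowest in Tshr+/+ 1 and 3; right, Slc4a1, Klf1, Car1 and Car2 are highest in the libraries numbered 3 of both groups.

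These orders place the same library at opposite ends. Tshr+/+ 3 held the least globin RNA, 50.2 FPKM summed over 4 genes, and the most of Car1, Slc4a1 and Klf1, 3.55 FPKM summed. Globin FPKM per FPKM of these 3 genes was 118.1, 125.4 and 14.1 in Tshr+/+ 1, 2 and 3 and 250.8, 106.2 and 30.2 in the libraries labelled Tshr-/- 1, 2 and 3, lowest in both libraries numbered 3, which follows in part from choosing these 3 genes for being high there. Sums of some marker lists of other cells moved with one of these orders and others did not, and their part in either was not tested. The sum of 8 eosinophil genes lay between the others of its group in each library numbered 3, at 1075.6 and 1159.0 FPKM. That of 11 genes of T and NK cells was highest of its group in Tshr+/+ 3, at 84.9 FPKM, but not in the library labelled Tshr-/- 3, at 96.6 FPKM. The 14 genes of resident macrophages, those of erythroblastic islands included, summed to 231.9, 183.9 and 229.7 FPKM in Tshr+/+ and 161.1, 181.0 and 260.1 FPKM in those labelled Tshr-/-, with the 3 lowest sums in the 3 libraries richest in globin and none of the genes at 0. Of the 5 monocyte genes, 4 had their highest value of each group in the libraries numbered 3, against 22.0% of the genes tested. The exception, Ly6c2, was the most abundant, at 352.9, 393.8 and 378.7 FPKM in Tshr+/+ and 478.1, 415.8 and 377.8 FPKM in those labelled Tshr-/-. The sum of the 5 was 423.6, 452.7 and 488.9 FPKM in Tshr+/+ and 572.5, 469.4 and 510.5 FPKM in those labelled Tshr-/-. It was thus highest in number 3 in Tshr+/+ only. The sum of the 10 neutrophil genes was the lowest of its group there. It was 115833 FPKM in Tshr+/+ 3 and 93641 FPKM in the library labelled Tshr-/- 3, with S100a9 the most abundant gene. Of the 10, 3 were themselves lowest in both (30%), against 24.2% of the genes tested, and 1, Prtn3, was highest in both. Mpo and Elane were highest of their group in Tshr+/+ 3 only. The 13 genes of megakaryocytes and platelets, which share a precursor with erythroid cells, also had their lowest sums in the libraries numbered 3. These sums were 13.4 and 13.8 FPKM, against 15.4 to 28.0 FPKM in the other 4 libraries. In this list 1 gene was at 0 in all libraries. Of the other 12, 2 (16.7%), Itga2b and Treml1, were themselves lowest there in both groups, below the 24.2% of the genes tested. The 10 genes of B and plasma cells, none at 0 in all libraries, summed to 661.4, 395.6 and 697.7 FPKM in Tshr+/+. In those labelled Tshr-/- the sums were 261.8, 457.4 and 423.9 FPKM. These sums were highest in the 2 libraries with the least globin RNA and lowest in the library with the most. Igkc was the most abundant of the 10. Ighm did not follow the sums, at 50.9, 49.6 and 82.2 FPKM in Tshr+/+ and 79.5, 106.0 and 74.9 FPKM in those labelled Tshr-/-. The summed 9 genes of basophils and mast cells were lowest in both libraries numbered 3, at 320.3 and 304.4 FPKM. The others had 426.0 to 473.1 FPKM. Only 1 of the 9 (11.1%), Hdc, was itself lowest there in both groups, below the same 24.2%. Hdc was the most abundant of the 9, with 376.0, 336.8 and 168.1 FPKM in Tshr+/+ 1, 2 and 3, so it set much of the sum. Every other gene of the list was highest of its group in Tshr+/+ 3, but only Kit also in the library labelled Tshr-/- 3. Prss34, for example, had 53.6, 53.3 and 94.8 FPKM in Tshr+/+ and 110.8, 109.9 and 62.4 FPKM in those labelled Tshr-/-.

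Of the other genes of the erythroid programme, those of the red cell membrane and skeleton went with Slc4a1 rather than with globin. Of 21 such genes, 14 had their highest value of each group in the libraries numbered 3. The same was found for 22.0% of all genes tested, for 16.6% of 6796 genes with a mean of 0.1 to 1 FPKM, the range of most of these genes, and for 26.4% of the protein-coding genes among them. This count was chosen after the values were seen. Rhd, a blood group membrane protein, had 0.147, 0.341 and 1.02 FPKM in Tshr+/+ and 0.390, 0.313 and 0.872 FPKM in those labelled Tshr-/-. The water channel gene Aqp1 had 0.402, 0.781 and 1.54 FPKM and 0.592, 0.489 and 2.08 FPKM; Rhd and Aqp1 were named after their values were seen. Sptb, the β-spectrin gene, went the other way, lowest in both libraries numbered 3.

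Between the genotype labels, 0 of 3 tested genes of this membrane list passed limma's test in either direction, and 0 had an unadjusted p under 0.05. The median difference was 0.02, with the skeleton gene Epb41 the most abundant (means 7.23 ± 0.664 and 7.04 ± 0.208 FPKM, SD, n = 3) and the glycophorin C gene Gypc at 2.60 ± 0.853 and 2.72 ± 0.626 FPKM. The other 18 genes were under the minimum for testing.

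Genes of haem synthesis other than Alas2 gave no call between the genotype labels. Of 13 measured, 12 were tested with limma, and 0 passed in either direction or had an unadjusted p under 0.05, with 8 higher and 4 lower and a median difference of 0.04. The mitochondrial iron importer gene Slc25a37 had 21.4, 25.2 and 22.2 FPKM in Tshr+/+ and 31.0, 36.0 and 19.9 FPKM in those labelled Tshr-/-, a difference of 0.29 ± 0.21 (SE). Its Pearson r with the globin mean over the 6 libraries was 0.73, given as a description. Of the 13 genes, 6 had their highest value of each group in the libraries numbered 3, against 22.0% of the genes tested. Alad, the second enzyme of the pathway, had 1.87 ± 0.519 and 2.29 ± 0.187 FPKM (SD, n = 3), and the most abundant gene, Tmem14c, a porphyrin carrier of mitochondria, had 68.8 ± 8.99 and 75.0 ± 0.872 FPKM. Alas1, the form of the first enzyme used outside erythroid cells, was at 18.6 to 32.7 FPKM, above Alas2 in every library, and was named after its values were seen.

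Of 14 erythroid transcription factor genes, 10 were tested with limma, 0 passed in either direction and 1, Nfe2, had an unadjusted p under 0.05, with 4 higher and 6 lower and a median difference of -0.03. Nfe2, which regulates globin and platelet genes, was the most abundant, at 117.5, 125.0 and 110.9 FPKM in Tshr+/+ and 83.7, 106.6 and 67.7 FPKM in those labelled Tshr-/-. All its Tshr-/- values lay below all Tshr+/+ values, with a log2 difference of -0.47 ± 0.17 (SE; limma adjusted p = 0.9997, unadjusted p = 0.0306). Of all genes tested, 6.77% had groups without overlap and 2.90% had an unadjusted limma p under 0.05. Klf3, a repressor of the same family as Klf1, had 18.8 ± 5.16 and 14.2 ± 1.22 FPKM (SD, n = 3). Gata1 was at 0.693 to 1.88 FPKM and was named after its values were seen.

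Of 17 measured genes of erythroid receptors, iron uptake and late enzymes, 8 were tested with limma, 0 passed in either direction and 1, Prdx2, had an unadjusted p under 0.05, with 3 higher and 5 lower and a median of -0.11. Prdx2, an antioxidant peroxiredoxin abundant in red cells, had 6.62, 6.87 and 8.30 FPKM in Tshr+/+ and 9.38, 8.68 and 9.37 FPKM in those labelled Tshr-/-, which did not overlap; its difference was 0.30 ± 0.12 (SE; limma adjusted p = 0.9997, unadjusted p = 0.0354). Mkrn1, a ubiquitin ligase gene, did not overlap in the opposite direction, at 37.4 ± 0.470 and 33.0 ± 2.20 FPKM (SD, n = 3). The 2 of 8 tested genes without overlap stand beside 6.77% of all genes tested. Bnip3l, which clears mitochondria from reticulocytes, was the most abundant at 43.5 ± 4.12 and 40.6 ± 1.33 FPKM. Among 14 other carbonic anhydrase genes only Car9 was tested, at 0.906 ± 0.273 and 1.05 ± 0.140 FPKM, and it did not pass.

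**Figure D5:**
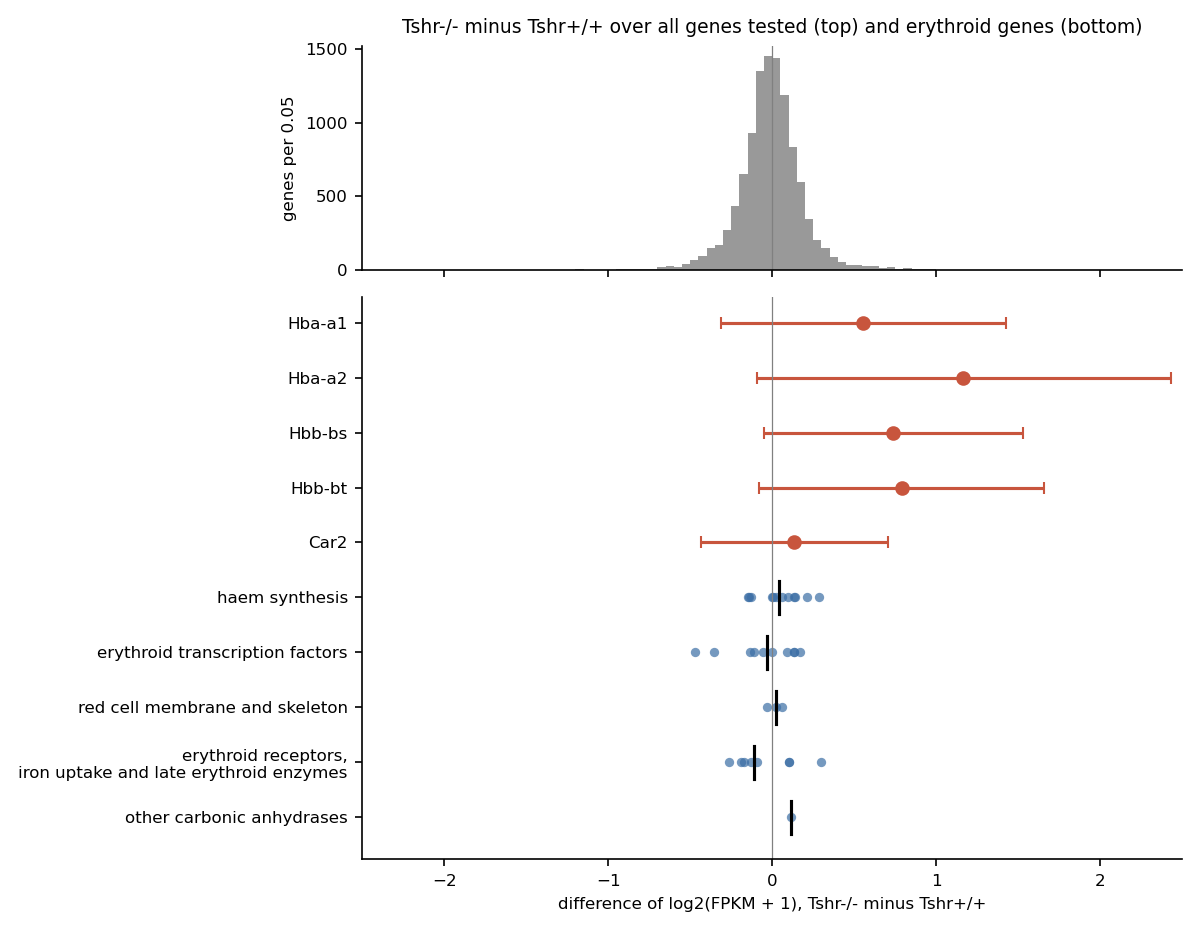
Top, number of genes (y axis) by difference of log2(FPKM + 1), Tshr-/- minus Tshr+/+ (x axis), over 10913 genes tested; bottom, the 5 tested genes with limma 95% intervals, and tested genes of 5 other lists as points with list medians as black bars. The 4 globin genes lie between 0.56 and 1.17 with intervals that include 0, while the list medians lie between -0.11 and 0.11.

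Among 6095 genes with a mean of at least 5 FPKM, likeness to the globin mean was ranked by Pearson r of log2(FPKM + 1) over the 6 libraries. The genes with the highest r were Polr2k, a subunit of RNA polymerases (r = 0.988), the interferon-induced gene Oas1a (r = 0.982), the histone methyltransferase gene Kmt2d (r = 0.982), the membrane protease gene Adam17 (r = 0.976) and the heat shock gene Hspa1b (r = 0.970). Hspa1b, for example, had 2.05, 10.7 and 2.03 FPKM in Tshr+/+ and 8.96, 7.58 and 5.36 FPKM in those labelled Tshr-/-, with Tshr+/+ 1 and 3 lowest as for globin. For Car2 they were Otulinl (r = 0.992), the ceramide kinase gene Cerk (r = 0.992), the DNA replication genes Pola2 (r = 0.991) and Dna2 (r = 0.990), and Hnrnpul2 (r = 0.990). These values of r describe the highest of 6095 over 6 shared libraries and carry no test.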

How the data were processed

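The deposited table holds FPKM values that the authors made from their read alignments, 1 column for each of 6 libraries. The build is GRCm38 (mm10), per the submitters' processing notes. Aligner, counting tool and use of strand are each not given in the sources used here. Columns headed HO were read as homozygous Tshr-/-. FPKM times gene length was a whole multiple of one library-specific step for 100% of values (tolerance 0.01), so whole fragments were computed. Gene positions of all 9 genes equalled those of GENCODE M21.

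The values log2(FPKM + 1) of genes that reached 1 FPKM in 3 or more libraries were compared with limma 3.58.1 (R 4.3.3, trend, two-sided, Benjamini-Hochberg, threshold 0.05), after tests on simulated data; the 4 genes under that minimum were compared with exact permutation tests (scipy 1.17.1). The p-values measure the spread between these libraries, read as 1 mouse each. From each list the most abundant gene and the 2 of smallest p were named; others are marked. Ahsp and Fam46c of the lists had no row. The members and lists were chosen with earlier results of these data known. Deviations of same-numbered libraries from their group means correlated (r = 0.243, 0.262 and 0.468 over genes). Tshr+/+ 2 also correlated with the library labelled Tshr-/- 1 (r = 0.344), more than the pairs numbered 1 and 2 did. A pairing by number is therefore not settled. The main fit used no pairing, and the replicate number entered as a block in an alternative only. Alternatives were other pseudocounts, filters, scalings, variance moderation, library weights, voom on fragments, the replicate block and each library left out. One gene of the red cell membrane list is not reported here by name.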

Additional observations from a re-analysis of the deposited data

How the results depend on the processing

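None of the 5 genes tested with limma passed under any alternative run; for Alas2, Slc4a1, Klf1 and Car1 the permutation tests could not have passed, and some alternatives gave no p, and the 4 globin genes and Alas2 kept a difference above 0 in all 91 values. Over all genes tested, 24 passed with array weights and 24 without both libraries numbered 3, an alternative chosen after seeing the data; leaving out 1 library gave 0 to 2, the highest without the library labelled Tshr-/- 3. With the replicate number as a block, 0 genes passed and the adjusted p was 0.834 for Hba-a1 and 0.820 for Hba-a2 and Hbb-bs, so the pairing changed no call. The direction of the others was not fixed. With 1 library left out, the log2 difference ran from -0.12 to 0.23 for Slc4a1, from -0.18 to 0.15 for Klf1, from -0.32 to 0.37 for Car1 and from -0.0401 to 0.36 for Car2. For Klf1 and Car1 it was 0.0706 and 0.0343 with a pseudocount of 0.1, 0.0252 and 0.0124 with equal totals, 0.0039 and 0.10 without both libraries numbered 3, and 0.27 and 0.50 without the libraries labelled Tshr-/- 1 and 2, chosen after seeing the data, which leaves 1 library of that label and assumes that it varies like the others. The cause of these changes was not tested. Genes with few fragments, such as Klf1 with 45 in all, limit what can be seen.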
